A study of Mus musculus with 18 samples.

Results

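Long noncoding RNAs expressed in RAW 264.7 cells were selected on 2 properties of the deposited count table, a gene type of lncRNA and a mean count of at least 100 over the 18 libraries. This choice took 135 genes of the 11288 long noncoding RNA genes in the table, of which 5025 had at least 1 count. Of all 56748 genes, 9571 reached the same mean count, and 9148 of these were protein-coding.

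Long noncoding RNAs are transcripts with no known protein product. Some act in the nucleus as scaffolds of nuclear bodies, some repress or activate nearby genes, and others are mainly the carriers of small RNAs, such as the microRNAs and small nucleolar RNAs (snoRNAs) cut from their exons or introns. In macrophages, sensing of microbial products by Toll-like receptors switches on long noncoding RNAs together with cytokine genes, and some of them raise or restrain the inflammatory programme.

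RAW 264.7 is a mouse macrophage cell line, and its RNA was sequenced after poly(A) selection in 6 conditions with 3 libraries each, which the study's methods call biological replicates. All 18 libraries are labelled WT in the headers of the deposited counts. Control cells received no treatment. Cells of the TBHQ group received 5 µM tert-butylhydroquinone, a food antioxidant known to activate the transcription factor Nrf2, for 4 h. The LPS group received 0.1 µg/mL lipopolysaccharide, a ligand of Toll-like receptor 4, for 12 h, and the PIC group received 20 µg/mL poly I:C, a double-stranded RNA mimic sensed by Toll-like receptor 3, for 12 h. The LPS+TBHQ and PIC+TBHQ groups had TBHQ for 4 h and then the stimulus for 12 h. TBHQ was dissolved in DMSO, and the untreated control is not described as receiving DMSO, so that TBHQ and its solvent cannot be told apart.

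Library totals ranged from 14423390 to 18851626 counts, so that 3 counts, taken as the detection floor, correspond to 0.159 to 0.208 CPM, the count scaled to a common library size with TMM factors in the values below. All 135 genes passed the filter on low counts and were tested among 13691 genes. The rule pooled all conditions. A mean count of at least 100 was reached in every condition by 103 genes, and 8 genes fell under 100 when their highest condition was left out: Mir155hg (179 with and 91.3 without it), Gm20186, Dlx1as, AW011738, Gm7160, ENSMUSG00000120224, ENSMUSG00000120850 and ENSMUSG00000119972. For these 8 genes the rule itself favours a difference. Just inside the threshold were ENSMUSG00000120850 with a mean count of 100.3, Gm7160 with 102 and ENSMUSG00000120224 with 102. Just outside were Pvt1 with 98.9, E130307A14Rik with 98.7 and ENSMUSG00000121248 with 98.7.

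On a per-length scale, the median long noncoding RNA of the group had a mean FPKM of 5.07, with a range from 0.202 for Kcnq1ot1 to 285 for Gm46620. The median of the 9148 protein-coding genes was 9.90 FPKM. A mean of at least 10 FPKM was reached by 38 of the 135 genes. Most counts fell on few genes: Malat1 held 30.1% of all counts on the 135 genes, and the 10 most abundant held 66.0%. Gm46620, the highest per length, shares 84.5% of its transcript sequence with other genes, so that its counts are uncertain.

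The macrophage markers Cd68 (median 655 FPKM), Lyz2 (4056 FPKM), Csf1r (119.7 FPKM) and Spi1 (143 FPKM) were expressed in every library, whereas Mertk, another macrophage marker, had at most 5 counts. T cell, B cell, epithelial, fibroblast and erythroid markers were at or near 0, with no more than 8 counts in any library. In bulk RNA, fewer cells and less RNA per cell cannot be told apart.

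The 135 genes together took well under 1% of each library. Their share was 0.666%, 0.649% and 0.672% of the counts in the control libraries and 0.726%, 0.756% and 0.676% with LPS. All LPS libraries were above all control libraries, and the 95% Wilson interval of a library's share, which covers counting error only, was at most 0.00894 percentage points wide. With PIC the libraries held 0.668%, 0.648% and 0.600%, which overlapped the control. The lowest mean share, 0.580%, was found with PIC and TBHQ together (0.583%, 0.607% and 0.550%). No comparison of shares passed the exact two-sided permutation test, in which 3 against 3 libraries cannot go below p = 0.1: the adjusted p was 0.24 for LPS against control, for PIC against LPS and for each TBHQ comparison, and 0.4 for PIC against control. Malat1 alone took from 0.148% to 0.272% of a library, and without it the mean share was 0.469% in control and 0.475% with LPS.

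**Figure D1:**
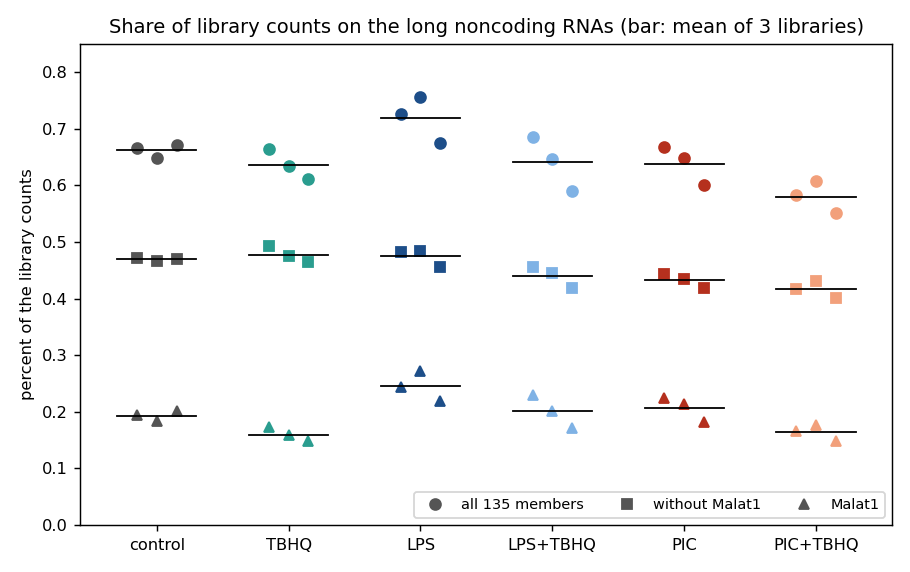
Percent of library counts on the 135 long noncoding RNAs (circles), on these without Malat1 (squares) and on Malat1 alone (triangles), for each of the 18 libraries, with bars at the mean of 3 libraries. The mean of all 135 was 0.719% with LPS and 0.580% with PIC and TBHQ, and without Malat1 the condition means lay between 0.416% and 0.477%.

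The comparisons of LPS and of PIC with the control asked which long noncoding RNAs respond to a bacterial and to a viral mimic. They share the control libraries, so each is given on its own. With LPS, 42 of the 135 genes were higher and 25 lower at an adjusted p below 0.05 (edgeR, quasi-likelihood F-test, p adjusted by Benjamini and Hochberg's method over all tested genes). These p-values set a difference against the spread between libraries of the same condition, all from a single cell line. The methods do not say whether the replicates came from separate experiments. Among all tested genes 24% were higher and 24.1% lower, against 31.1% and 18.5% of the long noncoding RNAs. With PIC, 50 were higher and 42 lower (37.0% and 31.1%), beside 28.6% and 30.1% of all tested genes. Protein-coding genes with a mean count of at least 100 were called more often than the average gene, at 33.5% higher and 36.9% lower with PIC, and at 28.6% higher and 31.1% lower with LPS. The median log2 fold change was 0.04 with LPS and 0.00 with PIC over the 135 genes. With total library size these medians became -0.05 and -0.22, which follows the shift of all genes under that scaling.

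Most changes were small. At the stricter threshold the study used, an adjusted p below 0.01 and an absolute log2 fold change above 2, edgeR called 2 long noncoding RNAs with LPS (1.64% of all tested genes passed) and 7 with PIC (3.57% of all tested genes). Scaling by total library size, in place of the TMM factors, moved the median of all genes by -0.22 on the log2 scale for PIC against control, by -0.09 for LPS against control and by -0.13 for PIC against LPS. With that scaling the higher genes made up 46.6% instead of 62.7% of the long noncoding RNAs called with LPS, and 34.0% instead of 54.3% of those called with PIC. Fold changes below are relative to the TMM scale.

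A list of long noncoding RNAs tied to innate immunity had 6 members among the 135 genes. This list and those below were written with earlier results of these data known, so their counts are descriptions and not tests. Other listed genes fell short of the count rule, among them Morrbid with a mean count of 56.2, Ptgs2os with 12.2 and AW112010 with 0. With LPS, 5 of the 6 members rose and 1 fell, beside 24% and 24.1% of all tested genes. With PIC 5 rose and 1 fell, beside 28.6% and 30.1% of all tested genes, but the rises of Malat1 and Neat1 with PIC were lost with total library size scaling. The largest change was that of Mir155hg (chr16:84500055-84512133 in the authors' positions), the primary transcript of miR-155, a microRNA of activated macrophages and lymphocytes. Its counts were 18, 13 and 12 in the control libraries, 204, 164 and 143 with LPS and 590, 601 and 656 with PIC. Every stimulated library was far above every control library, and PIC was above LPS in each pair of libraries. In CPM these were 1.17, 0.795 and 0.706 in control, 14.2, 11.3 and 9.905 with LPS and 42.6, 42.6 and 38.1 with PIC. The log2 fold change was 3.73 ± 0.24 (SE, n = 3 and 3) with LPS (edgeR adjusted p = 3.75e-18). It reached 5.53 ± 0.20 with PIC (edgeR adjusted p = 1.3e-25), and PIC exceeded LPS by 1.80 ± 0.16 (edgeR adjusted p = 2.01e-15). Mir155hg is among the genes that pass the count rule only through their highest condition.

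Mir155hg was lower with TBHQ before either stimulus. It stood at 2.897, 2.98 and 2.31 CPM with LPS and TBHQ, and at 14.5, 14.5 and 11.9 CPM with PIC and TBHQ. Neither set of libraries overlapped with that of the stimulus alone. The log2 fold change was -2.11 ± 0.19 against LPS (edgeR adjusted p = 1.9e-13) and -1.59 ± 0.11 against PIC (edgeR adjusted p = 2.46e-14). With TBHQ alone the values of 1.23, 0.913 and 0.815 CPM overlapped the control, with a log2 fold change of 0.16 ± 0.25. The mature microRNAs were not measured here. The arms of the hairpin inside Mir155hg, from RefSeq on GRCm38.p6 at chr16:84714143-84714165 and chr16:84714182-84714202 on the plus strand, are shown because this transcript had the largest response, with the seed (bases 2 to 8) in capitals.
mmu-miR-155-5p: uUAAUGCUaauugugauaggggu
mmu-miR-155-3p: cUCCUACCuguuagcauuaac

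**Figure D2:**
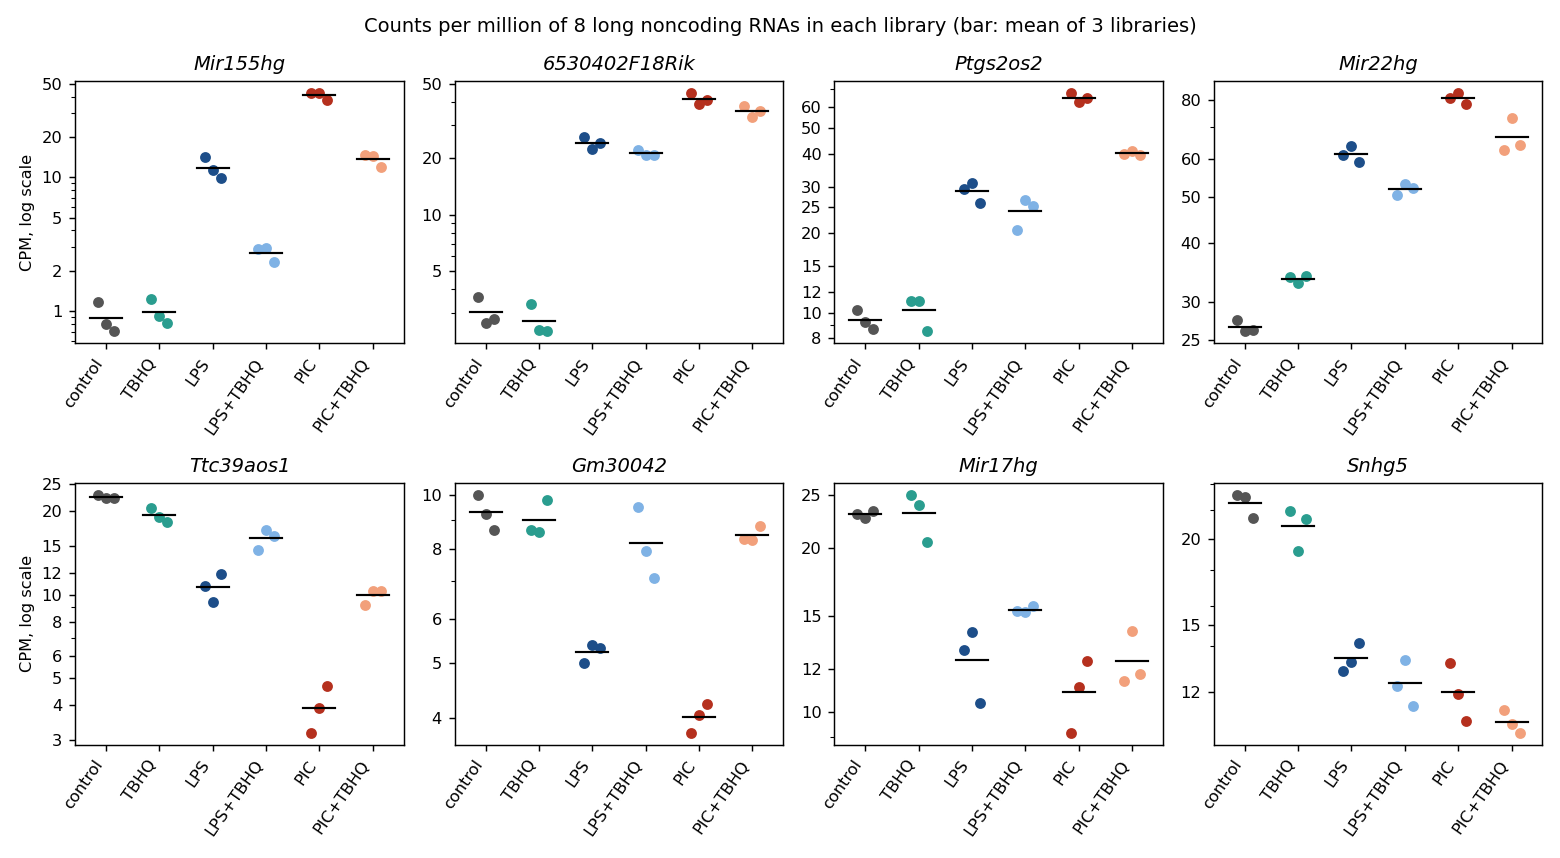
CPM (log axis) of 8 long noncoding RNAs in each of the 18 libraries, by condition, with bars at the mean of 3 libraries. Mir155hg, 6530402F18Rik, Ptgs2os2 and Mir22hg were higher with LPS and PIC than in the control, Ttc39aos1, Gm30042, Mir17hg and Snhg5 were lower, and LPS+TBHQ stood at 2.90, 2.98 and 2.31 CPM for Mir155hg.

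Ptgs2os2, also known as lincRNA-Cox2, regulates immune genes in macrophages and lies near Ptgs2, the gene of cyclooxygenase 2. It was at 10.2, 9.23 and 8.65 CPM in control, 29.5, 30.9 and 25.98 CPM with LPS and 67.9, 62.6 and 65.2 CPM with PIC. The conditions formed 3 separate levels without overlap. The log2 fold change was 1.62 ± 0.10 with LPS (edgeR adjusted p = 6.35e-16) and 2.80 ± 0.08 with PIC (edgeR adjusted p = 3.2e-24). With PIC and TBHQ the libraries stood at 39.8, 40.9 and 39.4 CPM, all below those with PIC alone, a log2 difference of -0.70 ± 0.04 (edgeR adjusted p = 4.39e-09). With LPS and TBHQ they were at 20.5, 26.7 and 25.3 CPM, and the highest of these, replicate 2, lay above the lowest LPS library, so the groups overlapped. That log2 difference of -0.25 ± 0.14 passed the test narrowly (edgeR adjusted p = 0.0328). The call was lost without LPS+TBHQ replicate 1, at a log2 difference of -0.14, without LPS replicate 1 or 2 (-0.23 and -0.20), with total library size scaling (-0.23), with DESeq2 (-0.25) and with limma on FPKM (-0.23 and -0.25 by pseudocount).

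Ttc39aos1, also known as lincRNA-EPS, restrains immune genes in resting macrophages. It went the other way, from 22.9, 22.4 and 22.3 CPM in control to 10.7, 9.41 and 11.8 CPM with LPS and 3.18, 3.897 and 4.700 CPM with PIC. All stimulated libraries were below all control libraries, and those with PIC were lowest. It fell by 1.08 on the log2 scale with LPS (SE 0.10, edgeR adjusted p = 4.62e-11) and fell by 2.50 with PIC (SE 0.16, edgeR adjusted p = 1.92e-19). With TBHQ before the stimulus it was at 14.5, 17.1 and 16.3 CPM with LPS and at 9.17, 10.3 and 10.3 CPM with PIC. These libraries lay between the stimulus alone and the control in both cases. The log2 difference was 0.58 ± 0.12 against LPS (edgeR adjusted p = 6.09e-05) and 1.32 ± 0.17 against PIC (edgeR adjusted p = 8.3e-10). With TBHQ alone its log2 fold change of -0.22 ± 0.05 did not pass the test (edgeR adjusted p = 0.0727).

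Malat1 and Neat1 are nuclear RNAs, of nuclear speckles and of paraspeckles. Per length, Malat1 had 261 ± 12.4 FPKM (SD, n = 3) in control and 354 ± 36.5 with LPS. Its CPM was 1836, 1726 and 1894 in control, 2445, 2714 and 2200.3 with LPS and 2249, 1984 and 1704 with LPS and TBHQ. LPS was above control in every library, but the libraries with LPS overlapped those with LPS and TBHQ. Malat1 rose with LPS by 0.43 ± 0.10 on the log2 scale (edgeR adjusted p = 5.82e-06). It fell by 0.31 with TBHQ before LPS (edgeR adjusted p = 0.00139), a call lost with limma on FPKM (-0.31 with either pseudocount). It fell by 0.40 with TBHQ before PIC (edgeR adjusted p = 3.97e-05).

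The rise of Malat1 with PIC, 0.31 on the log2 scale, was lost with total library size scaling (0.10), as was that of Neat1, 0.25 against 0.03. Neat1 rose with LPS, from 849.5, 778 and 812 CPM in control to 1280.5, 1216 and 1124 CPM. No library of these conditions overlapped, and the log2 fold change was 0.57 ± 0.07 (edgeR adjusted p = 5.51e-10). With TBHQ before LPS it was at 1054, 1018 and 886 CPM, below LPS alone in each library, with a log2 difference of -0.29 ± 0.09 (edgeR adjusted p = 0.000317). With TBHQ before PIC the log2 difference of -0.06 ± 0.11 did not pass the test.

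MicroRNA hosts numbered 7 on the list, of which 2 rose and 1 fell with LPS (24% and 24.1% of all tested genes), and 2 rose and 2 fell with PIC (28.6% and 30.1% of all tested genes). For so few genes these counts are near the background. By position, 8 of the 135 genes held 15 annotated hairpins. Mir22hg, the host of miR-22, was at 27.5, 26.05 and 26.2 CPM in control, 33.9, 32.9 and 33.98 CPM with TBHQ, 61.3, 63.99 and 59.2 CPM with LPS and 80.5, 82.7 and 78.6 CPM with PIC. Each of these conditions was separate from the others. The log2 fold change was 1.21 ± 0.04 with LPS (edgeR adjusted p = 7.25e-19), 1.60 ± 0.03 with PIC (edgeR adjusted p = 4.03e-23) and 0.34 ± 0.03 with TBHQ alone (edgeR adjusted p = 6.46e-05). TBHQ before the stimulus went the other way, with log2 differences of -0.24 against LPS (edgeR adjusted p = 0.000945) and -0.27 against PIC (edgeR adjusted p = 9.01e-05). Mir22hg overlaps Tlcd2 on the same strand, so its counts are uncertain.

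Mir17hg, the host of the miR-17 to miR-92a cluster known for promoting cell growth, was at 23.1, 22.6 and 23.3 CPM in control, 13.001, 14.04 and 10.4 CPM with LPS and 9.17, 11.1 and 12.4 CPM with PIC. All stimulated libraries were below the control. It fell by 0.88 on the log2 scale with LPS (edgeR adjusted p = 1.15e-08) and fell by 1.07 with PIC (edgeR adjusted p = 1.24e-10). With TBHQ before LPS each library was above each LPS library, at 15.3, 15.2 and 15.6 CPM, with a log2 difference of 0.30 ± 0.13 (edgeR adjusted p = 0.0441). That call was lost without LPS replicate 1 (0.33) or 3 (0.19), LPS+TBHQ replicate 1 (0.31), 2 (0.31) or 3 (0.29) or control replicate 3 (0.30), and also with DESeq2 (0.30) and limma on FPKM (0.25 and 0.31).

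Mature sequences of the Mir22hg and Mir17hg hairpins, from RefSeq on GRCm38.p6, all on the plus strand, are shown with the seed in capitals. They are given because these hosts moved in opposite directions with both stimuli. Both arms of miR-22 and a single arm of each hairpin of the cluster are shown, and the other arms of the cluster are left out. The miR-22 arms lie at chr11:75463734-75463755 and chr11:75463772-75463793. The arms shown for the cluster lie, in that order, at chr14:115043684-115043706, chr14:115044183-115044205, chr14:115043867-115043889, chr14:115044048-115044070, chr14:115044358-115044380 and chr14:115044476-115044496. The seed AAAGUGC is shared by miR-17-5p and miR-20a-5p, and GUGCAAA by miR-19a-3p and miR-19b-3p.
mmu-miR-22-5p: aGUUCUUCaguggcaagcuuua
mmu-miR-22-3p: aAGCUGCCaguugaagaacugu
mmu-miR-17-5p: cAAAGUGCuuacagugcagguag
mmu-miR-20a-5p: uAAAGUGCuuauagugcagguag
mmu-miR-18a-5p: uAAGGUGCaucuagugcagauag
mmu-miR-19a-3p: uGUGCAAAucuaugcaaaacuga
mmu-miR-19b-3p: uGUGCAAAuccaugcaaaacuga
mmu-miR-92a-3p: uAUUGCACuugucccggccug

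Of the other hosts, Dleu2, which carries the hairpin of miR-16, was at 20.6, 20.3 and 18.8 CPM with LPS and 16.02, 15.4 and 16.5 CPM with LPS and TBHQ. These libraries did not overlap, and Dleu2 fell by 0.32 on the log2 scale (edgeR adjusted p = 0.00706). Mir142hg, whose microRNA is specific to blood cells, was at 12.1, 11.8 and 7.95 CPM in control and 7.77, 7.91 and 6.400 CPM with TBHQ alone. It fell by 0.52 (edgeR adjusted p = 0.00925), a call lost without control replicate 1 (-0.42) or 2 (-0.44), TBHQ replicate 3 (-0.43), or with limma at the lower pseudocount (-0.50). Mir99ahg, the host of miR-99a and let-7c, passed no test.

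snoRNA hosts carry small RNAs that guide modification of ribosomal and spliceosomal RNA in their introns, and many have a start typical of genes of the translation machinery. The list had 13 members among the 135 genes. With LPS 3 of the 13 fell, which is near the 24.1% of all tested genes that were lower. With PIC 9 of the 13 fell, beside 30.1% of all tested genes. Of the LPS calls, that of Snhg17 was lost without control replicate 1 (-0.17) or LPS replicate 3 (-0.13), and that of Snhg16 with DESeq2 (-0.37) and without control replicate 1 (-0.35) or LPS replicate 2 (-0.33). Of the PIC calls, that of Snhg6 was lost with DESeq2 (-0.24), with no filter (-0.26) and without control replicate 2 (-0.21) or 3 (-0.26) or PIC replicate 1 (-0.22) or 3 (-0.22). Their median log2 fold change was -0.14 with LPS and -0.31 with PIC, beside 0.00 and -0.01 over all tested genes. By position, 16 of the 135 genes held 47 genes that GENCODE M21 types as small nucleolar or Cajal body RNAs, Mir5117 in Gas5 and Mir1949 in Snhg4 among them despite their microRNA names, and 11 of these genes fell and 1 rose with PIC.

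Snhg5 was at 23.2, 22.99 and 21.4 CPM in control, 12.9, 13.3 and 14.1 CPM with LPS and 13.2, 11.9 and 10.9 CPM with PIC. All stimulated libraries were below the control. It fell by 0.75 on the log2 scale with LPS (SE 0.05, edgeR adjusted p = 1.46e-08) and fell by 0.91 with PIC (SE 0.09, edgeR adjusted p = 1.22e-10). With TBHQ before the stimulus, the differences of -0.12 ± 0.07 with LPS and -0.14 ± 0.09 with PIC did not pass the test. Snhg5 shares 10.4% of its transcript sequence with other genes, so its counts are uncertain. Snhg15 fell by 0.50 with PIC (edgeR adjusted p = 7.32e-06), while its change of -0.12 ± 0.08 with LPS did not pass.

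With TBHQ before the stimulus, 2 of the 13 hosts fell with LPS, near the 12.2% of all tested genes that were lower, and 4 fell with PIC, beside 15.5% of all tested genes. Of these 4, the call of Gas5 was lost with total library size scaling (-0.14), with limma on FPKM at the lower pseudocount (-0.22), and without PIC replicate 2 (-0.19) or PIC+TBHQ replicate 1 (-0.15) or 2 (-0.19). That of Snhg8 was lost with total library size scaling (-0.24), DESeq2 (-0.32), no filter (-0.31), only the groups compared (-0.31) and a replicate block (-0.31). It was also lost without PIC replicate 1 (-0.32) or 3 (-0.26), PIC+TBHQ replicate 1 (-0.31) or 3 (-0.26), TBHQ replicate 1 (-0.31), or any 1 control or LPS+TBHQ library (-0.31). The remaining calls, of Zfas1 and Snhg1, cannot be set beside the 15.5%, since that share was not reduced for lost calls. Zfas1, which shares 11.9% of its sequence with other genes, was at 33.2, 35.4 and 34.7 CPM in control, 34.4, 35.2 and 40.3 CPM with LPS and 26.7, 24.5 and 25.3 CPM with LPS and TBHQ. Libraries with LPS and TBHQ were below both other groups. Zfas1 fell by 0.52 on the log2 scale with TBHQ before LPS (edgeR adjusted p = 1.2e-06) and fell by 0.38 with TBHQ before PIC (edgeR adjusted p = 0.000227). Snhg1 fell by 0.32 (edgeR adjusted p = 0.000182) with TBHQ before LPS. It fell by 0.33 (edgeR adjusted p = 9.32e-05) with TBHQ before PIC. Neither passed the test with LPS alone, where the log2 fold change was 0.09 ± 0.08 for Zfas1 and 0.03 ± 0.06 for Snhg1. Gas5, named for growth arrest, was at 66.6, 75.3 and 67.1 CPM in control and 58.8, 62.99 and 59.6 CPM with PIC. These libraries did not overlap, and it fell by 0.21 (edgeR adjusted p = 0.00674), a call lost without control replicate 2 (-0.15) and with limma on FPKM (-0.18 and -0.19).

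A start with a C followed by 4 pyrimidines (C or T) is a mark of mRNAs and host genes of the translation machinery. Among 12 genes with a snoRNA inside that had a RefSeq start, 3 genes had this start in 3 of 15 windows. It was found in 6.74% of the windows of the 135 genes and in 2.51% of all 32851 windows. The 30 bases around these 3 starts (GRCm38.p6, 5′ to 3′) are shown with the C and the pyrimidines in capitals, for 1110038B12Rik at chr17:34952444-34952473 on the minus strand, Gas5 at chr1:161035161-161035190 on the plus strand and Snhg8 at chr3:123508312-123508341 on the minus strand. A match is a description of the annotated start only.
1110038B12Rik: cgggtCTCTTtgtgcacccgcccacacggt
Gas5: tcagcCTTTCggagctgtgcggcattctga
Snhg8: gaagtCTCTTtggctgcgatccgcctacga

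Outside the lists, several genes with no textbook role rose with both stimuli. 6530402F18Rik was at 3.64, 2.63 and 2.77 CPM in control, 25.9, 22.3 and 23.97 CPM with LPS and 44.5, 38.97 and 41.02 CPM with PIC. The 3 conditions did not overlap. It rose by 3.00 ± 0.15 on the log2 scale with LPS (edgeR adjusted p = 1.75e-21) and by 3.79 ± 0.15 with PIC (edgeR adjusted p = 1.04e-25). It overlaps Ntng2 on the same strand, and Ntng2 rose by 4.03 with LPS and 4.59 with PIC, so that counts of the 2 genes cannot be told apart with certainty. Gm49774 was at 9.94, 7.64 and 7.298 CPM in control, 31.5, 28.1 and 38.4 CPM with LPS and 47.1, 46.98 and 44.4 CPM with PIC. Both stimuli stood above the control in every library. The log2 fold change was 1.98 ± 0.19 with LPS (edgeR adjusted p = 7.51e-18) and 2.48 ± 0.14 with PIC (edgeR adjusted p = 1.75e-21).

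2500002B13Rik separated PIC from LPS. It was at 5.0003, 4.77 and 5.003 CPM in control, 11.6, 10.3 and 11.2 CPM with LPS and 31.9, 28.1 and 28.3 CPM with PIC. The levels were distinct in all 3 conditions. PIC exceeded LPS by 1.41 ± 0.08 on the log2 scale (edgeR adjusted p = 4.38e-14). In the comparison of PIC with LPS, 24 of the 135 genes were higher and 15 lower with PIC, beside 14.9% and 12.8% of all tested genes, which is 17.8% and 11.1% of the long noncoding RNAs. Scaled by total library size, 67 genes were called, 21 higher and 46 lower with PIC, so that the higher genes were 31.3% instead of 61.5% of those called. That scaling moved the median of all genes by -0.13 for PIC against LPS. No share over all tested genes was computed under it, so nothing is read from these counts. Ttc39aos1 was lowest in this comparison, where it fell by 1.42 (edgeR adjusted p = 1.83e-10).

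Among the genes that fell with both stimuli, ENSMUSG00000120992 had the largest fall with LPS. It was at 202, 201 and 198 CPM in control, 68.8, 74.02 and 73.3 CPM with LPS and 74.8, 69.7 and 75.1 CPM with PIC. LPS and PIC libraries lay together, far below the control. It fell by 1.47 on the log2 scale with LPS (edgeR adjusted p = 3.21e-25) and fell by 1.45 with PIC (edgeR adjusted p = 1.84e-25). Gm30042 was at 10.001, 9.23 and 8.65 CPM in control, 5.01, 5.396 and 5.33 CPM with LPS and 3.75, 4.04 and 4.24 CPM with PIC. With TBHQ it stood at 9.52, 7.92 and 7.11 CPM with LPS and 8.33, 8.29 and 8.79 CPM with PIC. The TBHQ libraries were above those of the stimulus alone in every case. The log2 difference with TBHQ was 0.64 ± 0.13 against LPS (edgeR adjusted p = 0.000435) and 1.07 ± 0.06 against PIC (edgeR adjusted p = 1.7e-07). Gm30042 overlaps Dagla on the opposite strand. The libraries were strand-specific, but the strand setting of the counting is not given in the sources used here, so its counts are uncertain.

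The comparisons of LPS+TBHQ with LPS and of PIC+TBHQ with PIC asked how the antioxidant changes a stimulated state, and they share no library. With LPS, 10 of the 135 genes were higher and 26 lower with TBHQ (7.41% and 19.3%), beside 11.7% and 12.2% of all tested genes. With PIC, 12 were higher and 35 lower (8.89% and 25.9%), beside 15.8% and 15.5% of all tested genes. Protein-coding genes with a mean count of at least 100 were split at 16.2% higher and 14.9% lower with LPS, and at 21% and 19.3% with PIC. The long noncoding RNAs thus had fewer higher and more lower calls than either background, a description with no test. Their median log2 difference was -0.06 with LPS and -0.05 with PIC, beside 0.00 and 0.01 over all genes. With total library size the median with PIC turned to 0.02, while the median of all genes moved by 0.07, so that the members stayed below it. Scaled by total library size, the higher genes made up 36.4% instead of 25.5% of those called with PIC.

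Of the 26 genes lower with TBHQ in LPS, 21 were also lower with TBHQ in PIC, which is 80.8% of the first list and 60% of the 35 genes of the second. Over all tested genes the shares were 72.2% and 57.0%. Of the 10 higher genes, 7 were also among the 12 higher with PIC, 70.0% and 58.3% of the lists, beside 68.8% and 50.8% over all tested genes. Genes that rose with a stimulus were in part lower with TBHQ in the other: 20 of the 50 genes higher with PIC against control were lower with TBHQ in LPS, 40% of the first and 76.9% of the second list, beside 30.8% and 72.2% over all genes. In the converse pair, 24 of the 42 genes higher with LPS were lower with TBHQ in PIC, 57.1% and 68.6% of the lists, beside 39.2% and 60.8% over all genes.

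**Figure D3:**
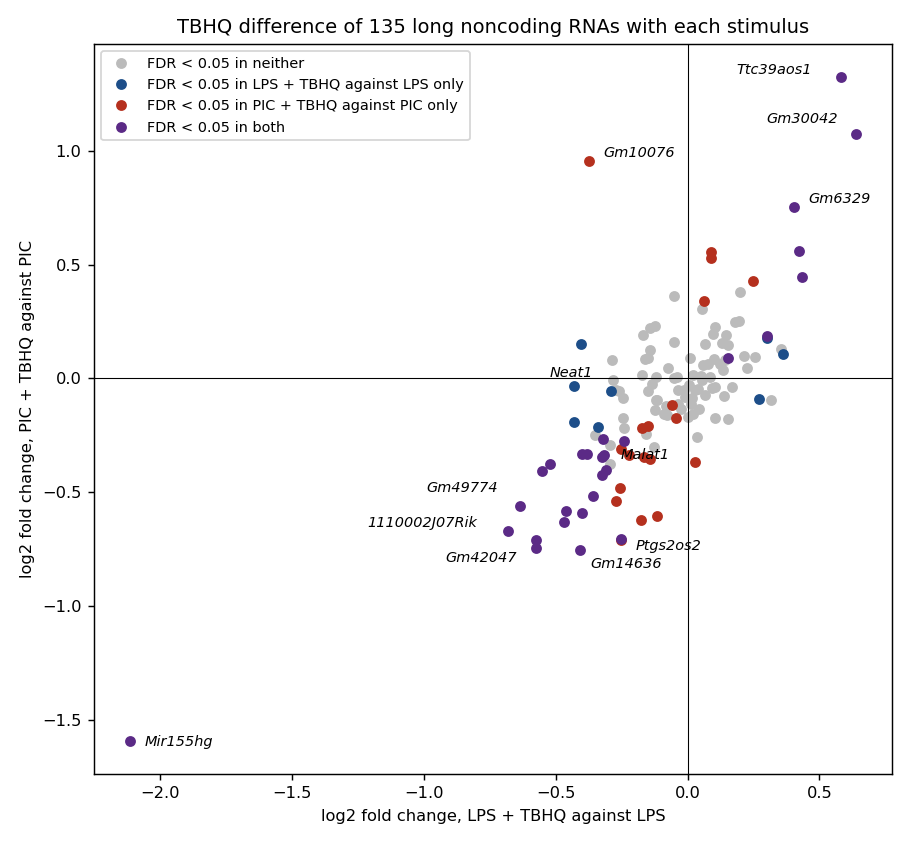
Log2 fold change of each of the 135 long noncoding RNAs with TBHQ, for LPS+TBHQ against LPS (horizontal axis) and PIC+TBHQ against PIC (vertical axis), coloured by which comparison passed the test. Mir155hg sits far to the lower left at -2.11 and -1.59, and Ttc39aos1 and Gm30042 at the upper right, with 1.32 and 1.07 on the vertical axis.

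Gm42047 was at 269, 274 and 255 CPM with LPS and 193, 176 and 167 CPM with LPS and TBHQ. In the PIC arm it was at 228, 227 and 225 CPM without and 137, 141 and 129 CPM with TBHQ. TBHQ libraries were lower in both arms without overlap. It fell by 0.57 on the log2 scale (edgeR adjusted p = 7.01e-13) in the LPS arm. In the PIC arm it fell by 0.74 (edgeR adjusted p = 1.4e-15). As 64.8% of its transcript sequence occurs in other genes, its counts are uncertain. 1110002J07Rik, with no shared sequence, was at 13.5, 14.5 and 14.3 CPM with LPS and 8.87, 7.32 and 10.2 CPM with LPS and TBHQ. These groups did not overlap, and it fell by 0.68 (edgeR adjusted p = 3.23e-05). In the PIC arm it fell by 0.67 (edgeR adjusted p = 4.56e-06).

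Not every call rested on all libraries. Gm10076 was at 13.6, 12.7 and 11.9 CPM with PIC and 14.9, 45.2 and 14.7 CPM with PIC and TBHQ. All 3 libraries with TBHQ were above those with PIC alone, but replicates 1 and 3 by little, and the control libraries also spread widely (21.4, 39.3 and 12.1 CPM). The log2 difference of 0.96 ± 0.54 (edgeR adjusted p = 0.0249) became 0.21 without PIC+TBHQ replicate 2, where it did not pass, and it did not pass with DESeq2 (0.96) or limma (0.73 and 0.74). It was also lost without PIC replicate 1 (0.99), 2 (0.94) or 3 (0.89). Gm10076 shares 69.8% of its sequence with other genes.

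Against the control, LPS+TBHQ had 34 higher and 35 lower long noncoding RNAs, beside 21.2% and 22.5% of all tested genes. PIC+TBHQ had 46 higher and 43 lower, beside 26.4% and 26% of all tested genes. These comparisons share the control with those above. Whether the TBHQ difference itself differed between the stimuli was tested as a contrast, which edgeR called for 1 gene in the positive and 2 in the negative direction (0.825% and 1.01% of all tested genes), beside 22 genes at an unadjusted p below 0.05 and 2 genes called by DESeq2. The count was 0 without LPS replicate 3 or PIC replicate 1, and 1 without LPS+TBHQ replicate 2 or PIC+TBHQ replicate 3.

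TBHQ alone was compared with the untreated control to see its effect without a stimulus. As its cells were collected after 4 h, while the study's design legend and a table footnote place the media-only control in its 12 h design, the time of harvest and TBHQ cannot be told apart. Of the 135 genes 18 were higher and 22 lower, beside 14.2% and 14.8% of all tested genes, which is near this background (13.3% and 16.3%). AU022793 was at 25.3, 25.2 and 25.5 CPM in control and 12.1, 10.3 and 10.9 CPM with TBHQ. The groups were far apart, while LPS (27.8, 23.9 and 29.9 CPM) and PIC with TBHQ (30.9, 31.6 and 26.003 CPM) were around or above the control. With LPS and TBHQ the libraries were at 24.2, 24.5 and 24.8 CPM, a little below every control library. With TBHQ alone AU022793 fell by 1.18 on the log2 scale (SE 0.07, edgeR adjusted p = 8.8e-13). 2210408F21Rik was at 5.78, 5.69 and 7.36 CPM in control and 12.6, 12.5 and 12.3 CPM with TBHQ. All TBHQ libraries were higher, with a log2 fold change of 0.99 ± 0.12 (edgeR adjusted p = 2.2e-07).

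Map2k3os, which starts 90 bases from Map2k3 on the opposite strand, was at 5.58, 6.79 and 8.005 CPM in control and 10.8, 11.99 and 10.4 CPM with TBHQ. The libraries did not overlap, and it rose by 0.70 ± 0.16 on the log2 scale (edgeR adjusted p = 0.000126). Map2k3, a kinase upstream of p38, rose by 0.58 in the same comparison. Gm38414 fell from 22.4, 22.1 and 21.8 CPM to 14.3, 13.999 and 15.9 CPM. There was no overlap, and the log2 fold change was -0.58 ± 0.06 (edgeR adjusted p = 9.16e-06). With LPS it fell by 1.01 (edgeR adjusted p = 1.36e-10).

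The remaining lists were small. Of the X inactivation genes, Firre and Ftx were members, and Xist itself had a mean count of 0.167. Firre, which shapes nuclear organisation, was at 59.5, 65.4 and 65.9 CPM in control and 56.7, 54.2 and 48.4 CPM with TBHQ alone. These did not overlap, and it fell by 0.26 on the log2 scale (edgeR adjusted p = 0.00128). Of the imprinted genes, Kcnq1ot1, Airn and Peg13 were members, and 2 of 3, Kcnq1ot1 and Airn, rose with LPS, with PIC and with TBHQ alone (24%, 28.6% and 14.2% of all tested genes), all of them calls that some alternative settings lost. Kcnq1ot1, a silencer of neighbouring genes in cis, was at 25.5, 22.8 and 17.1 CPM with PIC and 14.1, 15.5 and 10.2 CPM with PIC and TBHQ. All libraries with TBHQ were lower, and it fell by 0.71 (edgeR adjusted p = 0.000213). Kcnq1ot1 overlaps Kcnq1 on the opposite strand.

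Of the list tied to p53, DNA damage and growth, Norad, Oip5os1 and Dleu2 were members. With PIC 1 rose and 1 fell, near the 28.6% and 30.1% of all tested genes, and neither call held under every alternative. The fall was that of Oip5os1, -0.13 on the log2 scale (edgeR adjusted p = 0.043). It was lost with DESeq2 (-0.11), RLE size factors (-0.11), no filter (-0.13), a mean count of at least 50 (-0.11), only the groups compared (-0.12), limma on FPKM (-0.10 and -0.11) and without any 1 of the PIC (-0.11 to -0.12), LPS or PIC+TBHQ libraries or control replicate 1 (-0.10) or 3 (-0.12). Norad, which binds Pumilio proteins, was at 131, 126 and 129.7 CPM in control and 146, 144 and 153 CPM with PIC. These did not overlap, but its log2 fold change of 0.20 ± 0.03 (edgeR adjusted p = 8.6e-05) turned to -0.02 with total library size scaling. Its difference between PIC and LPS, 0.12, turned to -0.01. Of the 8 genes named for the opposite strand of a neighbour, 2 rose and 2 fell with LPS (24% and 24.1% of all tested genes), and 3 rose and 3 fell with PIC (28.6% and 30.1%), which is near the background. Peak1os was at 11.2, 10.03 and 8.299 CPM in control, 24.1, 28.4 and 24.9 CPM with LPS and 33.6, 37.1 and 33.4 CPM with PIC. All conditions were apart, and it rose by 1.39 ± 0.15 with LPS (edgeR adjusted p = 2.16e-13) and by 1.82 ± 0.14 with PIC (edgeR adjusted p = 2.7e-17). It overlaps Peak1 on the opposite strand.

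By position in the authors' file, each of the 135 genes was classed by a single protein-coding neighbour. This was an overlapping gene where there was any, else the gene with the nearest start. For 28 genes, the divergent class, the neighbour is on the opposite strand with starts within 2000 bases, whether or not they overlap. Of the other genes, 25 overlap the neighbour on the opposite strand, 11 overlap it on the same strand and 71 do neither. In all, 87 overlap some other gene and 48 overlap none. Ttc39aos1 starts 390 bases from Ttc39a. With PIC, Ttc39aos1 fell by 2.50 and Ttc39a fell by 2.44 on the log2 scale. With PIC and TBHQ against PIC, the values were 1.32 for Ttc39aos1 and 0.78 for Ttc39a. Ptgs2os2 starts 65054 bases from Ptgs2, which rose by 4.25 with LPS and 5.80 with PIC. With PIC and TBHQ against PIC, Ptgs2 fell by 1.11. Gm49774 starts 21 bases from Hmga1, which rose by 0.24 with LPS.

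With PIC against control, 22 of the 28 genes of the divergent class were called in either direction, beside 28.6% of all tested genes called higher and 30.1% called lower. Of the 22, 13 had a neighbour called in the same direction, 4 in the opposite direction and 5 none. Protein-coding genes with a mean count of at least 100 were themselves called at 33.5% higher and 36.9% lower in this comparison, and nothing is read from the neighbours' counts. Among the 25 genes classed as overlapping their neighbour on the opposite strand, 20 had a neighbour that was tested. Of the 25, 12 were called, 5 with the neighbour in the same direction, 1 in the opposite and 6 with no called neighbour. Where genes overlap, reads of the pair could be assigned to either, depending on the counting.

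Gm20559 and AW011738 were chosen after their values were seen, because genes of the interferon response lie near them. Gm20559, near Samd9l, was at 76.6, 75.997 and 78.3 CPM in control, 117, 122 and 117 CPM with LPS and 153, 151 and 150.5 CPM with PIC. With TBHQ it was at 87.9, 92.4 and 89.5 CPM with LPS and 117, 123 and 121 CPM with PIC. All LPS and PIC libraries were above the control, and within each stimulus all were above those with TBHQ. It rose by 0.98 ± 0.01 with PIC (edgeR adjusted p = 2.12e-21) and fell by 0.33 with TBHQ in PIC (edgeR adjusted p = 2.03e-08). AW011738 starts 2474 bases from Isg15, a ubiquitin-like protein induced by interferon, and was at 5.97, 3.24 and 5.24 CPM in control and 12.997, 14.3 and 12.6 CPM with PIC. These did not overlap, and it rose by 1.46 ± 0.27 with PIC (edgeR adjusted p = 7.05e-11), while Isg15 rose by 2.38. AW011738 passes the count rule only through its highest condition.

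RefSeq promoter windows, from 250 bases before to 50 bases after a start on GRCm38.p6, were found for 76 of the 135 genes, 89 windows in all. Some of these lie far from the GENCODE start of the gene, up to 93011 bases for Mir99ahg and 70609 for Gm14636. The distance was 27876 for D030028A08Rik, 17761 for a window of 2500002B13Rik, 16546 for Peak1os and 9856 for Mir155hg. Matches in such windows are counted in the shares that follow. Searched on both strands, TGANNNNGC, the core of the antioxidant response element bound by Nrf2, was in 40.4% of these windows and in 41.3% of all 32851 windows. GAAANNGAA, the core of the interferon-stimulated response element, was in 12.4% and 8.56%. GGNNTTTCC, an NF-kB core, was in 11.2% and 5.82%, TGANTCA, the AP-1 site, in 7.87% and 7.81%, and TATAAA in 16.9% and 13.6%. TGANTCA matches itself on the other strand, and it can overlap TGANNNNGC. No test was made of these shares.

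The windows of 4 genes that moved with the stimuli and with TBHQ are shown 5′ to 3′ on the strand of the gene, with every match to a searched motif in capitals. Of these, Gm20559 and AW011738 were chosen for the interferon response genes near them. The 4 windows therefore do not represent the 89, of which 12.4% held GAAANNGAA. Ptgs2os2 (chr1:150164899-150165198, minus strand) holds GAAANNGAA on the other strand. Ttc39aos1 (chr4:109406208-109406507, minus strand) holds TGANTCA. Gm20559 (chr6:3346089-3346388, minus strand, shown for the start of lowest position of 3 annotated ones) holds GAAANNGAA just after the start and TATAAA on the other strand. AW011738 (chr4:156203034-156203333, plus strand) holds GAAANNGAA on the other strand. A match describes letters in the window and no binding was measured.
Ptgs2os2: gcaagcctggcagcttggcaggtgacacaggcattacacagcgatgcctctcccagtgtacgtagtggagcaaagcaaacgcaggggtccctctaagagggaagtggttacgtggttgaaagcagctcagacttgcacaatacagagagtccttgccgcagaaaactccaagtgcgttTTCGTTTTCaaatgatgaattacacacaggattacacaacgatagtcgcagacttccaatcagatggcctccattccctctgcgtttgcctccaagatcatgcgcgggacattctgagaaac
Ttc39aos1: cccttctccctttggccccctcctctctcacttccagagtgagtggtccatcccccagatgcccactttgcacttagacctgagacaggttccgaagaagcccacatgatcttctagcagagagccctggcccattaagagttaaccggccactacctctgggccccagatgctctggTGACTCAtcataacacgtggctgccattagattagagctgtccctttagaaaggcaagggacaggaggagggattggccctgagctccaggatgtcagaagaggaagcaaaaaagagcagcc
Gm20559: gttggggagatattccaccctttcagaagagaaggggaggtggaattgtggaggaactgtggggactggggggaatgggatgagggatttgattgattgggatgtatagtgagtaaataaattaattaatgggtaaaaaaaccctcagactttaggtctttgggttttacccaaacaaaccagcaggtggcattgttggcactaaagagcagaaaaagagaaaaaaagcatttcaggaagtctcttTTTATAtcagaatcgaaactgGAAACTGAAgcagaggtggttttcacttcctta
AW011738: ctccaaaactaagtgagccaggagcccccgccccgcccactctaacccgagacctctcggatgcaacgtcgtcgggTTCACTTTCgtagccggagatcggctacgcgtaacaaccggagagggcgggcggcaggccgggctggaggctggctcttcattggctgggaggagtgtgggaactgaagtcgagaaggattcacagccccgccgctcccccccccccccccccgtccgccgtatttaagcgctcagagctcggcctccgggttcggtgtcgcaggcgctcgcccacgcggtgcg

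Over the comparisons of TBHQ, LPS and PIC with control, of TBHQ within each stimulus and of PIC with LPS, the genes called in none include Peg13, Mir99ahg, Epb41l4aos, Dlx1as and Gm17201, the last at 33.0 FPKM. Of 119 genes with transcripts in GENCODE M21, 17 had more than 10% of their sequence in another gene, among them Gm46620, Gm42047, Gm10076 and Norad (39.5%), and values of these are uncertain.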

How the data were processed

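The authors aligned reads with HISAT2 2.0.5, assembled transcripts with StringTie 1.3.3b, and deposited a count per gene from featureCounts 1.5.0-p3 and FPKM values for 18 libraries. The members and lists were chosen with earlier results of these data known. Counts were fitted in R 4.3.3 with edgeR 4.0.16 (quasi-likelihood, TMM, filterByExpr, 1 coefficient per condition), adjusted over 13691 genes and called at an FDR of 0.05. DESeq2 1.42.0 and limma 3.58.1 on log2 FPKM served as alternatives, beside other scalings, filters and thresholds and the omission of each library. Standard errors came from the replicates' log2 CPM. Named genes were the 10 with the highest mean FPKM, the 3 highest and 3 lowest of each comparison among calls without overlap, and list members. Fits were tested on simulated data, and no outcome of that is given here. Positions of genes are those of the authors' file, whose build is named as both GRCm38 and mm39; sequences are from RefSeq on GRCm38.p6.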

Additional observations from a re-analysis of the deposited data

Results flagged for a closer look

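The TBHQ difference with PIC differed from that with LPS for 3 long noncoding RNAs (edgeR, contrast of the differences), 1 higher and 2 lower. That is 0.741% and 1.48% of the 135 genes, near the 0.825% and 1.01% of all tested genes, so nothing about the long noncoding RNAs as a group is read from it. For Ttc39aos1 the contrast was 0.74 on the log2 scale (edgeR adjusted p = 0.0166), and it was called in 22 of 26 alternatives, from 0.46 to 0.89. It was lost without LPS replicate 3 (0.64), without PIC replicate 1 (0.60) and with limma on FPKM (0.46 and 0.71). For Ptgs2os2 it was -0.45 (edgeR adjusted p = 0.0329), called in 18 of 27 alternatives, from -0.56 to -0.38. For ENSMUSG00000120732 it was -0.39 (edgeR adjusted p = 0.0436), called in 16 of 27 alternatives, from -0.50 to -0.32. This gene was at 54.7, 54.98 and 57.4 CPM with PIC and 45.5, 42.7 and 41.6 CPM with PIC and TBHQ, while its LPS libraries overlapped those with LPS and TBHQ. The cause was not tested.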

How the results depend on the processing

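Of 4293 values of named genes under alternatives, 4089 kept their direction and side of the threshold, 201 lost the call and 3 reversed. The reversals came with total library size: Gm43351 with PIC (-0.0237), Norad with PIC (-0.0183) and Norad with PIC against LPS (-0.0145). None of these 3 values passed the test. That scaling moved the median of all genes by -0.22 for PIC against control and by -0.13 for PIC against LPS, so nothing about these genes is read from the reversals. In the order TBHQ, LPS and PIC against control, TBHQ within LPS, TBHQ within PIC, and PIC against LPS, the genes called were 0, 2, 7, 1, 0 and 0 at the study's threshold in edgeR (unadjusted p below 0.05 for 50, 74, 99, 51, 58 and 60). With an absolute log2 fold change above 0.5 they were 14, 40, 55, 9, 22 and 19. Among the 48 genes overlapping no other gene they were 17, 29, 38, 15, 19 and 17. Among the 72 genes with a mean count of at least 200, 26, 42 and 56 were called with TBHQ, LPS and PIC. At the study's threshold 1.64% of all tested genes passed with LPS and 3.57% with PIC against control. No such share was computed for the other comparisons at that threshold or for the other limits above, so nothing is read from those counts. Leaving out 1 library gave 34 to 41, 62 to 68, 87 to 93, 31 to 37, 39 to 48 and 33 to 41. With total library size, 67 were called for PIC against LPS, and no share over all tested genes was computed under that scaling.

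For the contrast of TBHQ differences the count was 0 at the study's threshold in edgeR (22 at an unadjusted p below 0.05, 2 in DESeq2), 1 with the log2 limit of 0.5, 1 with total library size, 7 with no filter, 5 with the replicate block, 1 and 0 with limma at a pseudocount of 1 and 0.1, and 0 to 4 without 1 library.

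The share of counts in control was 0.677% without mitochondrial counts. Without the most abundant gene the shares were 0.469%, 0.477%, 0.475%, 0.440%, 0.432% and 0.416% in control, TBHQ, LPS, LPS+TBHQ, PIC and PIC+TBHQ, and the difference in the share of library counts on the members, TBHQ vs control, turned to 0.00812. With a mean count of at least 200 they were 0.605%, 0.580%, 0.663%, 0.586%, 0.583% and 0.527%. With total library size the median log2FC of the members, LPS vs control, was -0.0479, and the median log2FC of the members, PIC+TBHQ vs PIC, was 0.0153. With PIC it was -0.216, and it was -0.116 for PIC against LPS. The cause was not tested.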
